A study of Mus musculus with 6 samples.

Results

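Among the probes of a mouse expression array hybridised with RNA of splenic B cells, 1209 carry the ID of a transcript record in their name, such as CK375241_P1, out of 59709 different probes on the array (controls and negative probes not counted). They were chosen by name, as the probes whose name starts with none of the 6 prefixes of the array's other series (ASMM9PARTA, CUST, MM9LINCRNAEXON, mouselincRNA, humanlincRNA and the negative probes). The 6 arrays came from female BALB/c mice, 1 mouse each, with B cells purified by affinity from the spleen. The 3 arthritic mice had been injected with human proteoglycan and were sampled 10 days after the third injection. The 3 non-arthritic mice were sampled 10 days after an injection of adjuvant, per their descriptions, although the treatment protocol in the labels names proteoglycan for all 6 mice. What the non-arthritic mice received is thus not settled by the labels, and if only the arthritic mice received proteoglycan, arthritis and immunization cannot be told apart.

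A transcript record in GenBank or its partner databases is a deposited RNA-derived sequence. An expressed sequence tag is a single sequencing read from 1 end of a cDNA clone, and many were never merged into a curated gene. Others are full-length cDNA sequences. Proteoglycan-induced arthritis is an autoimmune joint disease of BALB/c mice in which B cells present the antigen and give rise to antibody, so RNA of splenic B cells reports on the cells behind the humoral response.

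All 1209 names end in the same suffix, which was removed before the record was looked up. None of the records was a symbol, synonym or accession in RefSeq's table of mouse genes (GRCm38.p6), although 6574 names in that table have the form of a tag record. No probe sequence or position was used here. The probes are therefore given by record, with no gene, no genome position and no role, and probes that may share a transcript cannot be recognised. The cell type markers of B cells and of other spleen cells could not be sought among them for the same reason.

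The records bear 45 different letter prefixes, which tell under which block of accessions a sequence was filed. The largest blocks were BY with 143 probes, AK with 93, AA with 85, AI with 82 and BB with 70. AK holds high-throughput cDNA sequences and BC full-length cDNA clones, while BY, BB, AV, AA and AI hold expressed sequence tags. Each probe was spotted once on an array, so no value below has a repeat within an array.

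Most of these probes gave no signal that the scanner software called well above background. On no array was this the case for 717 probes (59.3%), against 44.3% of all 59709 probes. On all 6 arrays it was the case for 300 probes (24.8%), against 37.8% of all probes. The remaining 192 probes were detected on some arrays, namely 76 on 1, 27 on 2, 29 on 3, 21 on 4 and 39 on 5. The share detected on no array was 60.2% in CUST, 54.1% in MM9LINCRNAEXON, 72.5% in humanlincRNA and 70.2% in mouselincRNA. It was 41.9% in ASMM9PARTA, which holds 51842 of the array's probes. Low detection was thus shared with the smaller series.

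The share detected differed little between the mice. Mice 1, 2 and 3 of the non-arthritic group had 29.7%, 32.3% and 32.4%. Those of the arthritic group had 34.0%, 29.5% and 31.9%, so the groups overlapped. On the same arrays 42.9% to 47.8% of the other probes were detected. On every array the share of the record-named probes was thus the lower one. Probes are not replicates, so this is a description and was not tested.

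**Figure D1:**
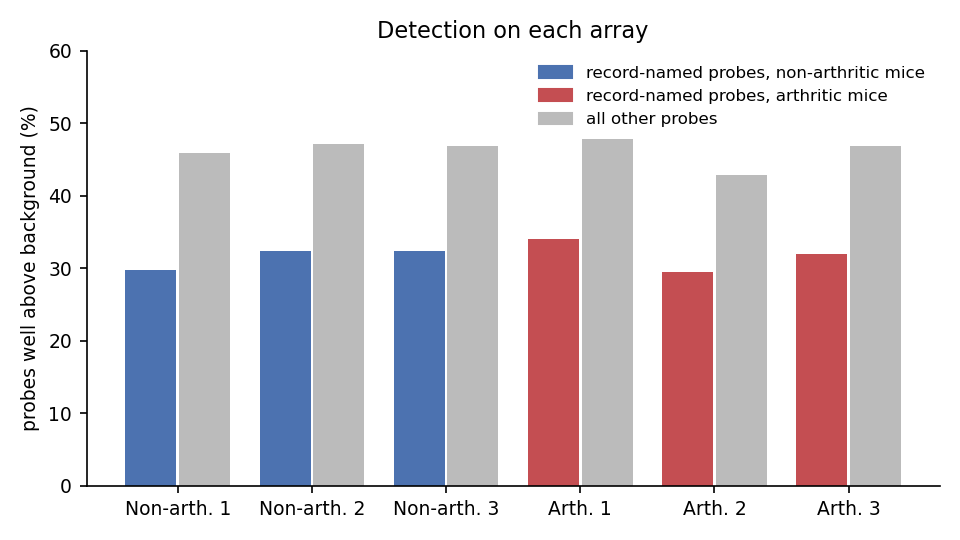
Share of probes well above background (%, vertical axis) on each of the 6 arrays, for the 1209 record-named probes (blue, non-arthritic mice; red, arthritic mice) and for all other probes (grey). The record-named probes lie between 29.5% and 34.0% on every array, below the grey bars at 42.9% to 47.8%.

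The shares detected differed between kinds of record. Of the 109 probes named by an AK or BC record, 55 (50.5%) were detected on 3 or more arrays, against 334 of 1100 (30.4%) with other prefixes. Among the tag blocks, AV had 27 of 50 (54.0%) and BB 31 of 70 (44.3%), whereas AI had 15 of 82 (18.3%), BF 1 of 17 and BM 0 of 15. Grouping the prefixes into AK or BC and others was done after the data had been examined.

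Values are given as log2 scaled signal, that is the log2 of the processed spot intensity minus the 75th percentile of that array, so that 0 is the brightness of the array's upper quartile. The 389 probes (32.2%) well above background on at least 3 arrays entered the comparison of the groups, and the other 820 did not. Their mean signal over the 6 arrays ran from -2.83 to 10.02, with quartiles of -1.50, -0.32 and 2.80, against -1.36, 0.17 and 2.82 for all 27869 tested probes. In the other series the median was 0.27 for ASMM9PARTA, -0.02 for CUST, -0.66 for MM9LINCRNAEXON, -1.48 for humanlincRNA and -1.35 for mouselincRNA. The middle of the record-named probes was thus lower than that of all probes, but above that of the series named for long intergenic noncoding RNA. Their upper end was not lower: 52 of the 389 (13.4%) lay among the brightest 10% of tested probes and 27 (6.94%) among the brightest 5%. Brightness depends on how well a probe hybridises, so these ranks do not order the amounts of RNA.

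The 2 brightest probes did not pass the test of the groups. AK216629_P1, the brightest by its mean, read 9.72, 10.17 and 10.18 in the non-arthritic group, always listed as mouse 1, 2 and 3, and 10.00, 10.02 and 10.03 in the arthritic group. The arthritic values lay inside the range of the non-arthritic ones, with a log2 difference of -0.0066 (SE 0.18, limma adjusted p = 0.987). BB761138_P1 had 9.41, 10.12 and 10.18 in the non-arthritic and 9.94, 10.02 and 10.02 in the arthritic mice, again with overlapping groups (log2 difference 0.087, SE 0.237, limma adjusted p = 0.861). In both, non-arthritic mouse 1 was the lowest array after scaling. Before scaling, its processed intensity for AK216629_P1 was the highest, at 157881. For BB761138_P1 it was 127724, above the 123326 and 126358 of non-arthritic mice 2 and 3. The 75th percentile of the array of mouse 1 was 187.3, against 108.9 to 144.1 on the others.

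In scaled signal, non-arthritic mouse 1 deviated mostly downward in the record-named probes. Against the mean of non-arthritic mice 2 and 3, 69 of the 389 probes had a scaled signal no more than 0.5 times theirs, and 5 had one of at least 2 times theirs. So 93.2% of the 2-fold deviations were downward, against 63.8% among the other 27480 tested probes, where 3981 were lower and 2258 higher. Non-arthritic mice 2 and 3 differed at least 2-fold from each other in 19 of the 389 probes, 8 one way and 11 the other.

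The lean of mouse 1 held at every brightness. In the 4 brightness classes, equal in size over all tested probes, 22, 20, 13 and 14 record-named probes were lower in mouse 1 by this measure, from the dimmest class to the brightest, and 2, 3, 0 and 0 were higher. In the same classes, all tested probes gave downward shares of 65.0%, 53.5%, 55.9% and 88.9%. The 3 series of probes named for long intergenic noncoding RNA had similarly uneven deviations, with downward shares of 88.2% for MM9LINCRNAEXON, 91.1% for humanlincRNA and 89.7% for mouselincRNA, whereas ASMM9PARTA had 62.3% and CUST 64.6%. The lean is therefore shared with those series.

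The sizes moved with the scaling, but the record-named probes leaned downward under each. With quantile normalization 54 were lower and 11 higher (83.1% downward, against 50.7% of the others). With median scaling they were 43 and 12 (78.2% against 44.4%), and with the normexp background model on median signals 13 and 3 (81.25% against 30.2%). The normexp setting also adds an offset of 50 to each signal, which makes the log2 differences of dim probes smaller. Among the other probes the majority turned to higher under the last 2 settings. What set non-arthritic mouse 1 apart was not tested.

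**Figure D2:**
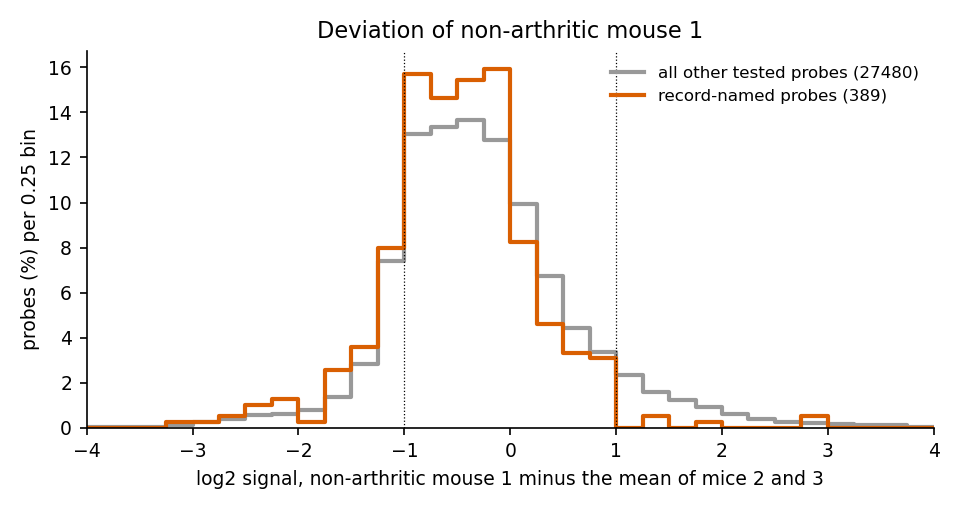
Log2 scaled signal of non-arthritic mouse 1 minus the mean of non-arthritic mice 2 and 3 (horizontal axis), as the percentage of probes in each bin 0.25 wide (vertical axis), for 389 record-named probes (orange) and 27480 other tested probes (grey). Dotted lines mark 2-fold. The orange line has 69 probes beyond the left line and 5 beyond the right one.

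The comparison of arthritic with non-arthritic mice asks how the B cell transcripts of the 2 groups differ. Of the 389 tested probes, 14 rose and 14 fell in the arthritic mice (limma, two-sided, Benjamini-Hochberg adjusted p under 0.05 over all 27869 tested probes). That is 7.20% of them, against 8.63% of all tested probes, or 4.34% higher and 4.29% lower, so the share of changed probes was close to that of the array as a whole. The record-named probes that rose had a median fold of 2.11 (range 1.66 to 5.14), and those that fell one of 2.00 (range 1.50 to 16.4), with probes below background in 1 group taken at a lower bound. At least 2-fold changes numbered 9 upward and 7 downward, and together they make 16 probes, against 5.43% of all tested probes on the same rule.

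The 2 probes with the largest increases were measured on every array. BE651978_P1, an expressed sequence tag, had a log2 scaled signal of 2.44, 3.30 and 3.31 in the non-arthritic and 5.38, 5.41 and 5.35 in the arthritic group. The arthritic values lay close together, all more than 2 log2 units above the highest non-arthritic value. The means were 3.02 ± 0.498 and 5.38 ± 0.026 (SD, n = 3 each), which is 5.14-fold higher (log2 difference 2.36, SE 0.265, limma adjusted p = 0.00654).

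BB649909_P1, also a tag, had 0.83, 0.28 and 0.06 in the non-arthritic and 2.28, 2.33 and 2.36 in the arthritic mice. Here mouse 1 was the highest of the non-arthritic mice, and the groups did not overlap. The increase was 3.83-fold (log2 difference 1.94, SE 0.225, limma adjusted p = 0.00736).

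The largest decrease was that of CK375241_P1, which had 2.61, 3.31 and 3.25 in the non-arthritic and -1.11, -0.97 and -0.86 in the arthritic group. It was well above background on all 6 arrays, and all arthritic values were more than 3 log2 units below the lowest non-arthritic one. The means were 3.06 ± 0.387 and -0.98 ± 0.126 (SD, n = 3 each), which is 16.4-fold lower (log2 difference -4.04, SE 0.229, limma adjusted p = 0.00174). Of the 22557 probes of the whole array that were well above background on every array, its fitted difference was the second lowest by rank (rank 2). In raw processed intensity it read 1144, 1098 and 1035 in the non-arthritic mice against 62.9, 68.4 and 79.2 in the arthritic mice.

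BC156060_P1, named by a full-length cDNA record, had 0.50, 1.63 and 1.60 in the non-arthritic and -1.52, -1.14 and -1.18 in the arthritic mice. Mouse 1 was the lowest of the non-arthritic mice and so the nearest to the arthritic ones, but the groups did not overlap. The signal was 5.75-fold lower (log2 difference -2.52, SE 0.338, limma adjusted p = 0.0104).

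DT905990_P1, named here after its values were seen because it is the remaining probe at least 4-fold lower, had 1.08, 0.35 and 0.23 against -1.93, -1.84 and -1.64. It was 5.13-fold lower (limma adjusted p = 0.00616), and again all arthritic values were below all non-arthritic ones. With normexp correction of the median signals, which includes the offset of 50, the log2 differences of the 3 lower probes were smaller. They were -3.05 for CK375241_P1, -1.52 for BC156060_P1 and -1.32 for DT905990_P1 (limma adjusted p = 6.43e-05, 0.00282 and 0.00443). An offset by itself shrinks the differences of dim signals, and its part was not tested.

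Detection in 1 group only, on at least 1 of its arrays, was seen for 51 probes in the arthritic and 49 in the non-arthritic mice, most of them on a single array. Detection on all 3 arthritic arrays but none of the non-arthritic ones was seen for 4 probes, of which 1 passed the test. The opposite was seen for 3 probes, of which 1 passed. The shares of all probes with these patterns are not given here, so the counts cannot be set against the whole array. Both probes that passed are named here after their values were seen. CA876182_P1 had -1.40, -1.18 and -1.51 in the arthritic mice, against -3.60, -3.03 and -2.54, none of them well above background, in the others. Its scaled processed signal was at least 2.31-fold higher in the arthritic mice (limma adjusted p = 0.0208). BB691294_P1 had -2.25, -1.65 and -1.53 in the non-arthritic mice, against -3.84, -3.72 and -4.0, none of them well above background, in the arthritic group. On the same scale it fell at least 1.50-fold (limma adjusted p = 0.00675). Such a bound compares the mean of the group with signal to a floor on each array without it, which is the dimmest signal still well above background there or the probe's own value if that is higher. Neither passed with normexp correction, where the log2 differences were 0.38 and -0.56 (limma adjusted p = 0.326 and 0.114). Both sizes are smaller than the bounds, which thus hold only for the scaled processed signal. The normexp offset of 50 shrinks the differences of signals this dim, and its part was not tested.

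**Figure D3:**
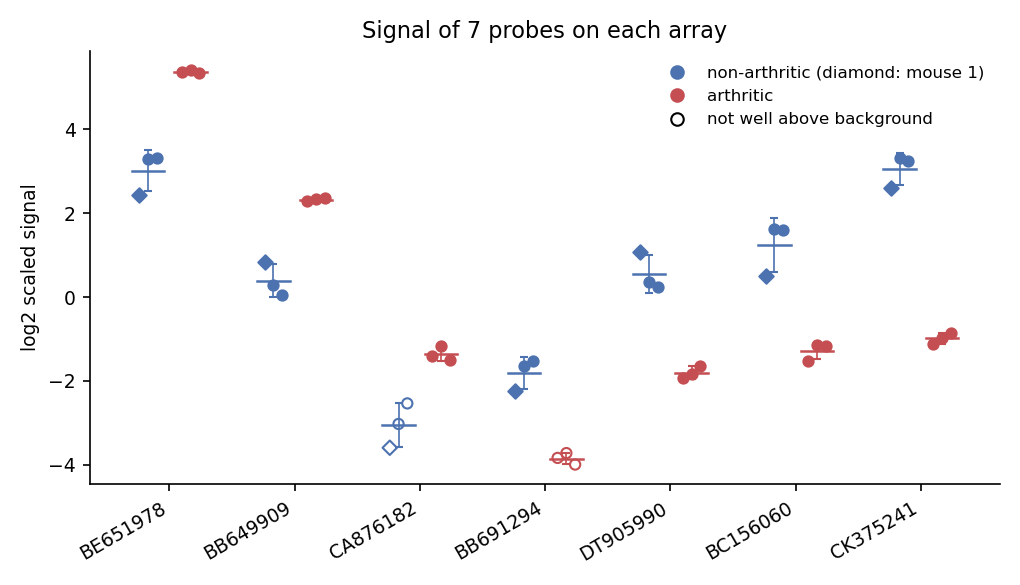
Log2 scaled signal (vertical axis) of the 7 changed probes named in the text, on each array. Points are single mice (blue, non-arthritic, with mouse 1 as a diamond; red, arthritic; open, not well above background), and lines with bars are the mean and SD of 3 mice. The groups do not overlap in any of the 7, and CK375241 has the widest distance between them.

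The other 21 changed probes shifted less. Each of them was detected on 5 or 6 arrays, and none reached 4-fold. In the 14 probes that rose, the SD between arthritic mice had a median of 0.052 and a range of 0.026 to 0.171, against a median of 0.177 and a range of 0.108 to 0.529 between non-arthritic mice. In the 14 that fell, the medians were 0.069 for arthritic and 0.244 for non-arthritic mice. Over all 389 probes the median SD was 0.114 between arthritic and 0.401 between non-arthritic mice, against 0.096 and 0.397 over all tested probes. The wider spread of the non-arthritic mice was thus shared with the whole array. The test favours probes with a small SD, so the smaller values of the changed probes follow in part from how they were picked. The changed probes were spread over the brightness classes, with 4, 10, 6 and 8 from the dimmest to the brightest.

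The changed probes were also spread over the record blocks. BI had 2 that rose and 2 that fell, BE had 2 that rose and BY had 2 that fell. BB had 2 that rose and 1 that fell, and AK had 1 that rose and 2 that fell. None of the tested probes changed in CF (13 tested), AI (15), CR (14) or BG (11) by the limma test. Blocks of this size cannot be ranked by such counts.

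**Figure D4:**
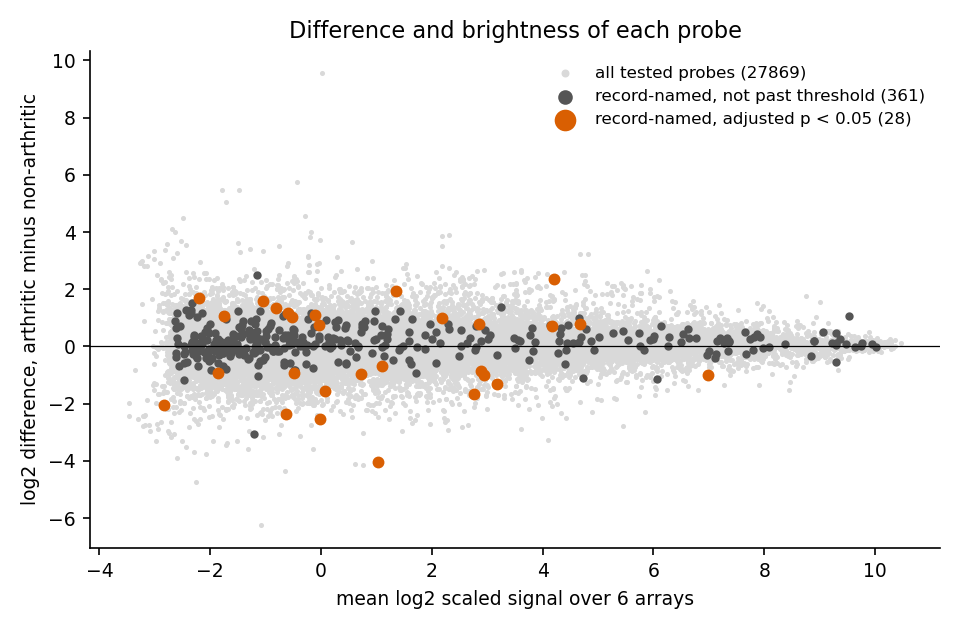
Log2 difference, arthritic minus non-arthritic (vertical axis), against the mean log2 scaled signal over 6 arrays (horizontal axis), for all 27869 tested probes (light grey), 361 record-named probes that did not pass (dark grey) and 28 that passed (orange). The orange points occur from dim to bright, and the lowest is CK375241_P1 at -4.04.

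Taken over all 389 probes, the median log2 difference was 0.15, with quartiles of -0.15 and 0.47, against a median of 0.056 and quartiles of -0.29 and 0.39 for all tested probes. Without non-arthritic mouse 1 the median was -0.019, against -0.032 for all tested probes. The upward median of the record-named probes thus moved with that mouse. The groups did not overlap in 141 of the 389 probes (36.2%), 93 higher and 48 lower in the arthritic mice, against 39.4% of all tested probes. With no adjustment, 92 (23.7%) had a limma p under 0.05, 57 higher and 35 lower, against 24.6% of all tested probes.

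A further 24 probes had a log2 difference of at least 1 in size and did not pass, 19 of them higher and 5 lower in the arthritic mice. In 21 of the 24, non-arthritic mouse 1 was the lowest of its group. The same held for 70.4% of all tested record-named probes and for 61.2% of all tested probes on the array. The share of all tested probes with such a difference that did not pass is not given here. The counts of 24, 19 and 5 thus cannot be set against the whole array. The widest of the 24 was AK135967_P1, with 2.23, -0.19 and -1.07 against -2.42, -2.78 and -2.99, the last 3 with 1 array well above background. The groups did not overlap, but the non-arthritic mice spread over 3 log2 units (log2 difference -3.06, SE 0.809, limma adjusted p = 0.0726). Without mouse 1 its difference was -2.10 (limma adjusted p = 0.00983). These probes were named after their values were seen.

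The next was CA891664_P1, which was high in a single mouse. It had -2.77, -2.21 and -2.26 in the non-arthritic mice, -2.27 and -2.07 in arthritic mice 1 and 2, and 4.63 in arthritic mouse 3, where the software marked the spot as an outlier. Its log2 difference of 2.51 (SE 1.82, limma adjusted p = 0.453) rests on that spot.

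The number of changed probes moved with the mice that entered the fit. Without non-arthritic mouse 1, 69 of the 389 probes were higher and 65 lower in the arthritic mice (34.4%, against 40.4% of all tested probes), and the median SE was 0.1004 in place of 0.262. It called all 28 probes of the 6-array fit, none with the sign turned, and 106 more. The fit without non-arthritic mouse 2 called 9 higher and 6 lower (3.43% of all tested probes), and that without mouse 3 called 6 and 5 (3.36%). Of the arthritic mice, dropping the first left 0 higher and 1 lower, dropping the second 1 and 3, and dropping the third 1 and 2, where 1.05%, 1.3% and 1.23% of all tested probes were called. The counts thus fell or rose along with those of the whole array. The 1 probe called in each of these 6 fits was CK375241_P1, with limma adjusted p values between 0.00037 and 0.0248. BE651978_P1 and DT905990_P1 were lost without arthritic mouse 1 (limma adjusted p = 0.0535 for both), with log2 differences of 2.36 and -2.29. BB649909_P1 was lost with any of the arthritic mice left out, at limma adjusted p values of 0.0527 to 0.0573, while its log2 difference stayed between 1.92 and 1.96. BC156060_P1 was lost in the same fits (0.0606 to 0.0685), with differences of -2.40 to -2.59. CA876182_P1 was lost without non-arthritic mouse 2 or any arthritic mouse (0.0678 to 0.109), with fitted differences of 1.60 to 1.77. BB691294_P1 was lost without arthritic mouse 1 or 3 (0.0546 and 0.0525), with fitted differences of -2.05 and -1.97. The fitted differences of these last 2 are not measured sizes, since 1 group has only a bound.

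All arrays lay on 1 slide. Its first row held 4 of them, all except arthritic mice 2 and 3. When the row was fitted as a block, 0 of the 389 probes passed by limma (lowest adjusted p 0.0723), against 0.00359% of all tested probes (1 probe). The contrast then rests on arthritic mouse 1 against the non-arthritic mice. The differences themselves were close to the unblocked ones, at -4.17 for CK375241_P1, 2.36 for BE651978_P1, 1.89 for BB649909_P1, -2.77 for BC156060_P1 and -2.49 for DT905990_P1. Within the first row alone, which leaves 1 arthritic mouse, the differences were the same. Of the array's control probes, the 2 well above background on every array were both higher in each arthritic than in each non-arthritic mouse. The difference was 0.65 for the bright corner marker and 0.35 for an ERCC control on the log2 scale. Their part in the differences above was not tested.

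**Figure D5:**
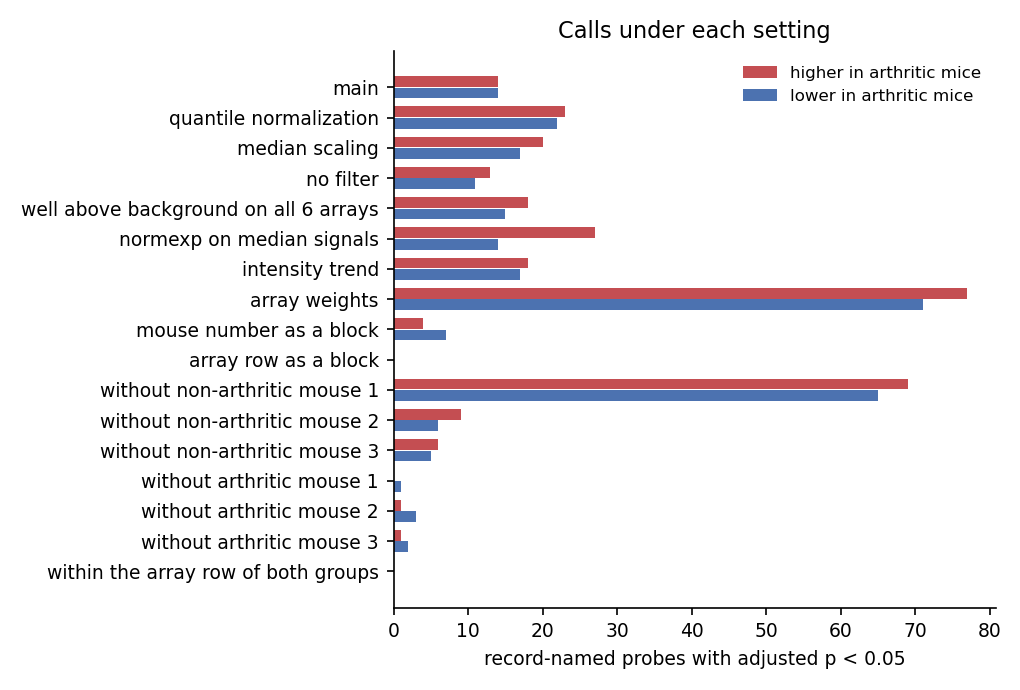
Number of record-named probes with a limma adjusted p under 0.05 (horizontal axis), higher (red) or lower (blue) in the arthritic mice, under each setting. The bars run from 0 with the array row as a block to 77 and 71 with array weights, where 44.2% of all tested probes were called, against 14 and 14 in the reported comparison.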

How the data were processed

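The deposited scanner files hold, per the file headers, spot intensity from Agilent Feature Extraction 11.0.1.1 (9.1 per the submitters' processing notes) as a processed signal, background-subtracted and detrended within each array and not normalized between arrays, together with median spot and background intensity and flags. The authors' deposited value table holds log2 values of 13655 probes, of which 0 are record-named, so that alternative was not run. Control and negative spots were left out, log2 processed signal was scaled to each array's 75th percentile, and probes well above background on at least 3 of 6 arrays were tested with limma 3.58.1 in R 4.3.3 (lmFit, eBayes, no covariate), which was tested on simulated data. Figures used matplotlib 3.10.9. No spot was saturated, the number of arrays limits the precision, and the labels give each array as a different mouse.

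The probes and all lists were chosen with earlier results of these data known. The rule named changed probes with non-overlapping groups by size, 2 in each direction, and the 2 brightest. Gene lists and markers could not be applied, because no record was paired with a gene. A planned permutation test over a median of the probes was left out, since the probes were chosen with results known.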

Additional observations from a re-analysis of the deposited data

Results flagged for a closer look

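Among the 820 record-named probes that entered no comparison, 3 were bright on a single array, at least 5 log2 units above each of the other 5, and well above background there only. All 3 were on the array of arthritic mouse 2. AI644087_P1 read 6.42 on it and -4.83 to -4.76 on the other arrays. CF622351_P1 read 6.56, marked as an outlier by the software, and -4.81 to -3.69 elsewhere. These 2 spots are adjacent, in rows 285 and 284 of column 102 of the array. BG342399_P1 read 0.85, against -4.80 to -4.67 elsewhere, in row 156 of column 2.

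A gap of at least 2 log2 units between the highest array and all others, with detection on it, occurred in 27 of the 1209 probes (2.23%), against 2.80% of all probes. The high array was that of an arthritic mouse in 16 and of a non-arthritic mouse in 11, the software marked 4 of the spots, and 2 of the 27 had entered the comparison (CA891664_P1 and AK135967_P1). Each probe has 1 spot per array, so a real signal of 1 mouse and a fault of 1 spot cannot be told apart here.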

How the results depend on the processing

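Each count is given with the share of all tested probes called, 8.63% in the reported fit. The counts of 14 higher and 14 lower stayed within 1.5 times with median scaling (20 and 17, 9.59%), no filter (13 and 11, 2.34%), a filter on all 6 arrays (18 and 15, 10.6%) and an intensity trend (18 and 17, 9.85%). They were 23 and 22 with quantile normalization (12.1%). With normexp on the median signals and its offset of 50 they were 27 and 14 (9.72%), where 65.85% of calls were higher against 50%. Array weights gave 77 and 71 (44.2%). Blocking on the array row gave 0 and 0 (0.00359%), as did the row of both groups taken alone (added after the data had been examined). Across the 6 fits that leave out a mouse, 0 to 69 were called higher and 1 to 65 lower. With the mouse number as a replicate block they were 4 and 7 (3.27%), and CA876182_P1 was lost (limma adjusted p = 0.052). The numbers are not known to pair mice: deviations correlated at 0.0397, 0.295 and 0.236 between mice numbered 1, 2 and 3. Each array correlated best with its own number, but for mouse 1 barely, with 0.0153 between non-arthritic mouse 3 and arthritic mouse 1. The deviations of 3 mice from their group mean constrain each other, so this ranking cannot decide whether mice were paired. The 28 called probes kept their sign in each of these fits, of which the filter on all 6 arrays tested 24 of them; because their groups do not overlap, leaving out a mouse could not change it. With a looser flag (signal above background by the software's significance test) 652 in place of 389 probes were detected on at least 3 arrays. The gap between the median level of record-named and all tested probes was -0.493, and -0.498 with quantile normalization. The causes of these changes were not tested.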
